A study of Mus musculus with 6 samples.

Results

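The miR-34 and miR-449 family was described in small RNA libraries of the nucleus accumbens (NAc). Its members were taken by name, as every mature form of miR-34a, miR-34b, miR-34c, miR-449a, miR-449b or miR-449c in the deposited count table, which gave 9 of 1364 miRNAs. These were both arms of miR-34a, miR-34b, miR-34c and miR-449a, and miR-449c-5p. The tissue came from adult male C57BL/6N mice, 7 to 8 weeks old, trained in conditioned place preference (CPP), a test in which a drug is paired with one of a pair of chambers. Saline mice received saline injections, and morphine mice 10 mg/kg morphine in daily sessions that alternated with saline sessions, for 6 days. NAc tissue was taken 0.5 h after the preference test on day 7. There were 3 saline and 3 morphine libraries, each from 3 μg of total RNA. The sample records describe 2 mice per library and a figure legend of the study 1 mouse, so p-values measure the spread between these libraries, whichever of these applied.

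A miRNA is cut from a hairpin, and either the 5p or the 3p strand can be loaded into Argonaute, where bases 2 to 8 of the strand, the seed, pair with target mRNAs. miR-34a is induced by the tumour suppressor p53 and is found in many tissues, brain included. The miR-34b/34c and miR-449 clusters are best known from multiciliated cells, such as the ependyma that lines the ventricles and the choroid plexus, where they act in the formation of motile cilia, and miR-34c has also been studied in neurons of the hippocampus in connection with memory. In whole NAc tissue the counts do not say which cells held a miRNA, and fewer cells of a type and less RNA per cell cannot be told apart.

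Mature sequences are shown because the shared seed is what makes these miRNAs a family and because near-identical sequences bear on how reads were counted. Of the 9 forms, 8 were matched in the table of RefSeq sequences used here (GRCm38.p6). miR-34c-5p was not matched and is named only. Sequences run 5′ to 3′, with the seed in capitals. The 4 matched forms of the 5p arm carry a single seed, GGCAGUG.
miR-34a-5p: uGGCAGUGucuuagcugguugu
miR-34b-5p: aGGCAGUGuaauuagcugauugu
miR-449a-5p: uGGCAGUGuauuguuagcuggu
miR-449c-5p: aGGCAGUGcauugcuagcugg
The 3p arms do not carry this seed. Those of miR-34b and miR-34c share the seed AUCACUA, and those of miR-34a and miR-449a each have their own.
miR-34b-3p: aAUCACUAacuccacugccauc
miR-34c-3p: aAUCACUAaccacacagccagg
miR-34a-3p: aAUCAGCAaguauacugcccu
miR-449a-3p: cAGCUAACaugcgacugcucuc

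No other mature miRNA of the 1679 in the RefSeq table has any of these 4 seeds. miR-34a-5p and miR-34b-5p differ by 4 edits, as do miR-449a-5p and miR-449c-5p, and miR-34b-3p and miR-34c-3p share their first 10 bases and differ by 5 edits. How the authors assigned a read that fits more than 1 of them is not given in the sources used here, so the split between these close forms is uncertain. The sequence of miR-34c-5p was not compared, so the split between it and the other 5p forms, miR-34b-5p among them, is uncertain as well.

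The hairpins lie at 3 places in the genome (RefSeq, GRCm38.p6, with genes from GENCODE vM21). Mir34a is on the plus strand at chr4:150068454-150068555 and overlaps an exon of Gm37795, a gene model of unknown function. Mir34c (chr9:51103034-51103110) and Mir34b (chr9:51103562-51103645) are on the minus strand, 451 bases apart, inside an intron of Btg4, a gene known from oocyte maturation that runs on the plus strand. Mir449c (chr13:113035983-113036091) and Mir449a (chr13:113037534-113037624) are on the plus strand, 1442 bases apart, in an intron of Cdc20b, which is transcribed in multiciliated cells. No hairpin lies in a UTR.

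The total count was 4183333 to 9842050 per library, so the level that 3 counts can show was 0.305 to 0.717 counts per M counts (CPM) before further scaling, for counting error only. Levels below are CPM after TMM scaling, which corrects each library for its composition. Of the libraries, saline replicate 2 stood apart. Its Spearman's correlation with the other saline libraries was 0.869 and 0.874, below the 0.907 to 0.926 with the morphine libraries. The group comparisons, list counts and correlations below are therefore also given without it. The neuronal markers chosen for this tissue (6 of 6 listed, among them miR-9-5p, miR-124-3p and miR-128-3p) summed to 130800 to 273900 CPM in every library, with saline replicate 2 the highest. Most of the sum in that library was miR-9-5p, at 211200 CPM. The listed markers did not move together there. miR-9-5p, miR-137-3p and miR-138-5p were above both other saline libraries, while miR-124-3p (4495 CPM), miR-128-3p (55110 CPM) and miR-132-3p (1387 CPM) were below them.

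The family was a small part of the libraries. Its 9 forms held 665, 6392 and 2379 counts in saline replicates 1, 2 and 3, and 4435, 2264 and 3113 counts in morphine replicates 1, 2 and 3. As a share of all counts the saline mean was 0.0419% ± 0.0314 (SD, n = 3) and the morphine mean 0.0391% ± 0.00723 (SD, n = 3). The groups overlapped in this share, and the saline libraries ran from 0.0159% in replicate 1 to 0.0767% in replicate 2. Without saline replicate 2 the saline mean was 0.0244%.

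miR-34c-5p was the most abundant form on average. It made up 48.0% to 89.6% of the family's counts and ranked 136 of 1364 miRNAs by mean CPM. miR-34a-5p came next, then miR-34b-3p and miR-34c-3p, and each of these was higher than the one after it in 6 of 6 libraries. The margins varied, since miR-34c-5p was 1.33 to 10.8 times miR-34a-5p and miR-34a-5p was 1.19 to 9.26 times miR-34b-3p. The order of miR-34c-3p and miR-449a-5p did not hold beyond the spread, with miR-34c-3p higher in 4 of 6 libraries. miR-34b-5p followed with 0 to 15 counts per library. miR-449c-5p, miR-34a-3p and miR-449a-3p had 7, 3 and 1 counts over all 6 libraries and were at or under the limit of detection. Reads of miR-34c-5p outnumbered those of miR-449a-5p, the leading form of the other cluster tied to multiciliated cells, 63.3 to 174 times. The table has no row for miR-449b. Counts from whole tissue do not show whether the family came from multiciliated cells here, and the members are named below by sequence alone.

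**Figure D1:**
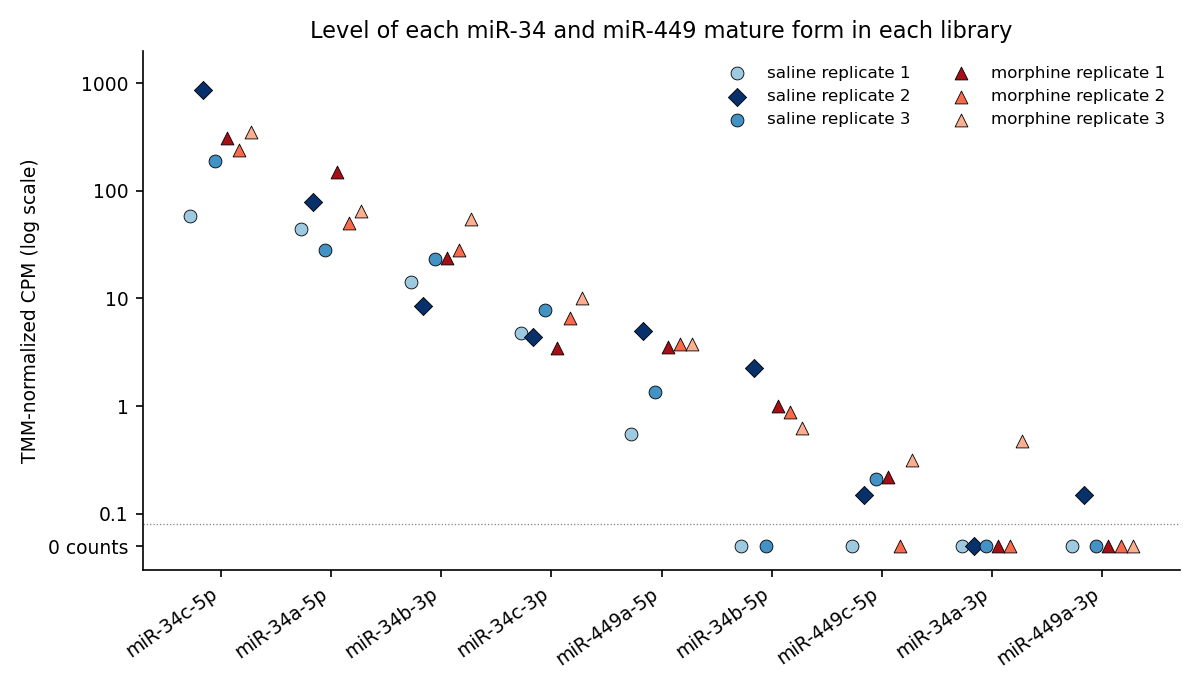
TMM-normalized CPM of the 9 mature forms on a log scale, 1 point per library, with saline libraries in blue and morphine libraries in red and libraries without a count drawn on the lowest line. The dark blue diamond, saline replicate 2, is the highest point for miR-34c-5p (859 CPM) and the lowest for miR-34b-3p (8.55 CPM).

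In the comparison of the morphine with the saline group, miR-34b-3p was the 1 member of 9 that met the study's criteria for DEmiRNAs. These are |log2 fold change| ≥ 0.58 and unadjusted p ≤ 0.05. They were applied here to edgeR's quasi-likelihood test, so the calls are not the authors' own. Over all miRNAs tested, 19.4% met these criteria in either direction and 9.68% were higher in the morphine group. With Benjamini-Hochberg adjustment over 1364 miRNAs, 0 of 9 members had an adjusted p under 0.05 in edgeR's quasi-likelihood test, against 5.21% of all miRNAs. Unadjusted, 1 member passed 0.05 in that test and 0 in DESeq2. The median log2 fold change of the 9 was 0.41, beside -0.15 over all miRNAs, and it was also 0.41 over the 7 members with counts in both groups.

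miR-34b-3p, the strand of miR-34b that dominated here, had 14.3, 8.55 and 23.3 CPM in saline replicates 1, 2 and 3 and 23.9, 28.4 and 54.8 CPM in morphine replicates 1, 2 and 3. Every morphine library was above every saline library, by a small margin between saline replicate 3 and morphine replicate 1, and 22.1% of all miRNAs had groups that did not overlap. The mean level was 15.4 ± 7.43 CPM in saline libraries and 35.7 ± 16.7 CPM in morphine libraries (SD, n = 3 each). The log2 fold change was 1.21 (SE 0.56, 95% interval 0.05 to 2.37), with an unadjusted p of 0.0439 and an adjusted p of 0.245 in edgeR's quasi-likelihood test. The call was lost in 11 of 17 alternative settings, while the log2 fold change stayed positive, at 0.75 to 1.70 over the 17. The adjusted p ran from 0.149 to 0.726 over the 15 settings that keep saline replicate 2, and was 0.0502 without it and 0.00453 without it and morphine replicate 1, a setting chosen after seeing the data. With library totals in place of TMM the log2 fold change was 0.75 and the groups overlapped, because saline replicate 3 (30.8 CPM) was then above morphine replicates 1 and 2 (21.9 and 26.6 CPM).

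miR-34c-3p comes from the hairpin next to that of miR-34b and has the same 3p seed. It had 4.76, 4.35 and 7.87 CPM in the saline replicates and 3.43, 6.59 and 10.05 CPM in the morphine replicates. The groups overlapped, with the lowest and the highest library both in the morphine group. The log2 fold change was 0.23 (SE 0.63, 95% interval -1.07 to 1.53, adjusted p = 0.84 with edgeR), and its direction turned under library total and upper quartile scaling.

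miR-34c-5p, the form with the family's highest count, had 58.4, 859 and 189 CPM in saline replicates 1, 2 and 3. It had 309, 241 and 353.5 CPM in the morphine replicates. All 3 morphine libraries lay between saline replicate 3 and saline replicate 2, and the saline libraries spanned a 14.7-fold range. With library totals in place of TMM, saline replicate 3 (249.3 CPM) was above morphine replicate 2 (225.9 CPM). The means were 369 ± 429.6 CPM for saline and 301 ± 56.5 CPM for morphine (SD, n = 3 each). With all libraries the log2 fold change was -0.29 (SE 0.64, 95% interval -1.62 to 1.03, adjusted p = 0.801 with edgeR), a difference within the spread between replicates.

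miR-449a-5p, which carries the same seed as miR-34a-5p and comes from the Cdc20b intron, had 3, 33 and 13 counts in the saline replicates and 32, 26 and 24 counts in the morphine replicates. In CPM these were 0.549, 4.95 and 1.36 against 3.54, 3.81 and 3.77. Saline replicates 1 and 3 were the lowest libraries and saline replicate 2 the highest, as for miR-34c-5p. The morphine libraries were close together, at 3.71 ± 0.145 CPM, while the saline libraries were at 2.29 ± 2.34 CPM (SD, n = 3 each). The log2 fold change was 0.69 (SE 0.74, 95% interval -0.85 to 2.23, adjusted p = 0.584 with edgeR). miR-449c-5p, with at most 2 counts in any library, is too low for a fold change, and miR-449a-3p had 1 count, in saline replicate 2.

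miR-34a-5p, a p53-induced member from a hairpin that lies apart from the others, had 43.7, 79.2 and 28.2 CPM in the saline replicates. In the morphine replicates it had 149.7, 50.7 and 65.3 CPM. Morphine replicate 1 was the highest library by far, and the other morphine libraries lay below saline replicate 2. The log2 fold change was 0.81 (SE 0.55, 95% interval -0.32 to 1.95, adjusted p = 0.466 with edgeR), and without morphine replicate 1 it was 0.31. miR-34a-3p had 3 counts, all in morphine replicate 3.

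miR-34b-5p had no count in saline replicates 1 and 3, 15 counts in saline replicate 2, and 9, 6 and 4 counts in morphine replicates 1, 2 and 3. Beside it miR-34c-5p had 319 to 5728 counts per library, and whether reads of that form entered the counts of miR-34b-5p was not tested. As for miR-34c-5p and miR-449a-5p, saline replicate 2 was the highest library and the other saline libraries were the lowest. The log2 fold change was 0.17 (SE 1.19, 95% interval -2.29 to 2.64, adjusted p = 0.952 with edgeR).

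Leaving out saline replicate 2 changed this picture, as it did for many miRNAs. Of the 8 members then tested, 5 met the criteria, all higher in the morphine group, and 4 had an adjusted p under 0.05. The background moved with them, since 37.0% of all miRNAs met the criteria in either direction, 20.9% were higher in the morphine group by the same criteria and 29.1% had an adjusted p under 0.05. The median log2 fold change of the members was 1.29, beside 0.20 over all miRNAs. With miR-34b-5p, which then had no saline count, at the bound given below and miR-34a-3p left out, it was 0.95 over 7 members. Groups did not overlap for 5 of the 9 members, all higher in the morphine group, and for 47.6% of all miRNAs, or 24.7% counting only those higher in the morphine group. These are levels after TMM, the 1 scaling used for fits without saline replicate 2. With library totals miR-34c-5p, miR-34a-5p and miR-34b-3p overlapped. Saline replicate 3 was above morphine replicate 2 for miR-34c-5p (249.3 and 225.9 CPM), and saline replicate 1 for miR-34a-5p (57.1 and 47.5 CPM). Only 2 saline libraries remain in this fit, and their spread was taken from all miRNAs together.

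miR-34c-5p then had a log2 fold change of 1.28 (SE 0.28, 95% interval 0.74 to 1.82, adjusted p = 5.39e-05 with edgeR), the opposite direction to that of all 6 libraries. Over the 15 alternatives that keep saline replicate 2 its log2 fold change ran from -0.70 to 0.56, with adjusted p-values of 0.617 to 1.0. That of miR-449a-5p was 1.85 (SE 0.60, 95% interval 0.67 to 3.03, adjusted p = 0.00817 with edgeR). For miR-34a-5p it was 1.30 (SE 0.33, 95% interval 0.66 to 1.95, adjusted p = 0.000672 with edgeR), and when morphine replicate 1 was also left out it was 0.69 with an adjusted p of 0.0865. miR-34b-3p, at 0.92 (SE 0.37, 95% interval 0.20 to 1.64), had an adjusted p of 0.0502 with edgeR. miR-34c-3p was at 0.06 (SE 0.45, 95% interval -0.83 to 0.95). miR-34b-5p had no count in saline replicates 1 and 3. Its mean morphine level was 1.93 times the mean of the levels that 3 counts give in each of these saline libraries. This bound takes the morphine counts of 9, 6 and 4 without their counting error. Saline replicate 2, left out here, had 15 counts.

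**Figure D2:**
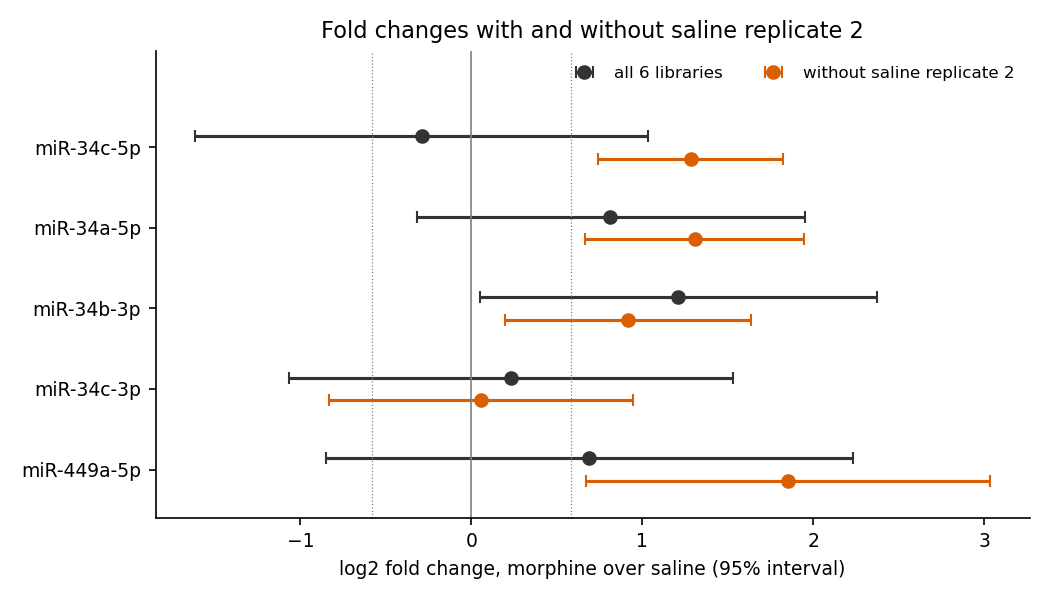
Log2 fold change of the morphine over the saline group with its 95% interval for the 5 members with counts in every library, with all 6 libraries in black and without saline replicate 2 in orange. Dotted lines mark 0.58 in either direction. miR-34c-5p moves from -0.29 to 1.28, while miR-34c-3p is at 0.23 and 0.06.

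The 5p and 3p forms of the miR-34b/34c cluster parted in saline replicate 2. There miR-34c-5p was 6.96 times and miR-449a-5p 5.18 times the mean of the other saline libraries, while miR-34b-3p was 0.455 times and miR-34c-3p 0.689 times that mean. miR-34a-5p was in between, at 2.20 times. Over the 6 libraries, log2(CPM + 1) of miR-34c-5p correlated with that of miR-449a-5p at Pearson's r = 0.915, although these lie on different chromosomes, and with that of miR-34c-3p, its own hairpin's other strand, at r = -0.0381. Without saline replicate 2 (n = 5) these were r = 0.924 and r = 0.295. miR-34c-5p and miR-34b-3p correlated at r = -0.0739 over 6 libraries and at r = 0.82 without saline replicate 2, so the lack of a relation between these strands rests on that library. The strands miR-34b-3p and miR-34c-3p of neighbouring hairpins correlated at r = 0.698, and at r = 0.685 without it. These values describe few libraries, whose normalization the points share. Saline replicates 1 and 2 lie at the ends of the range for miR-34c-5p and miR-449a-5p.

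**Figure D3:**
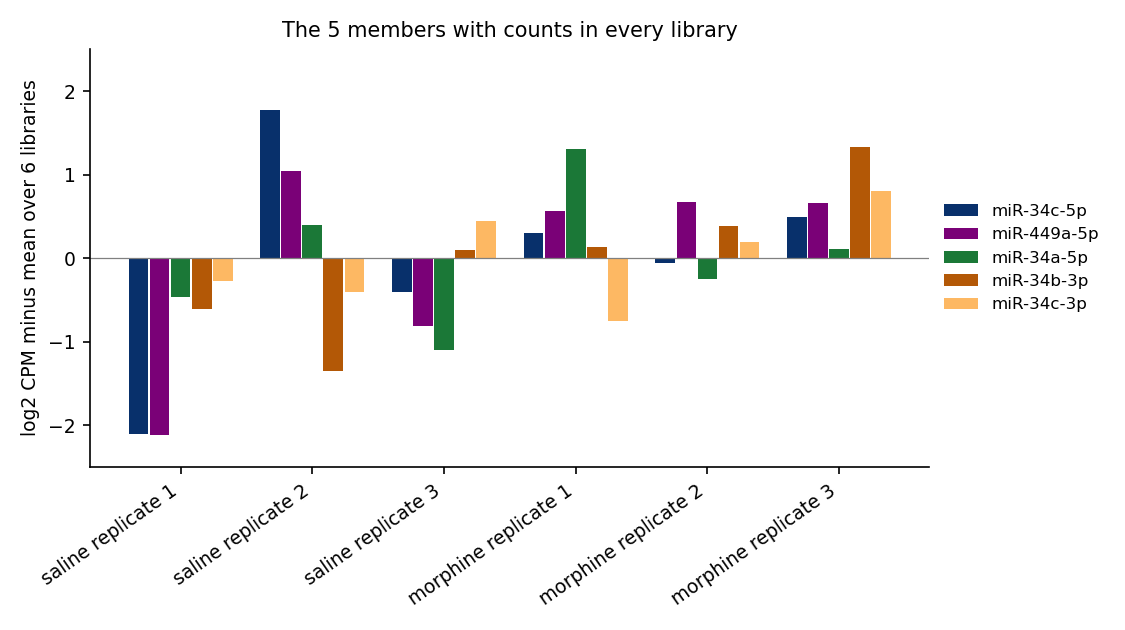
Log2 CPM of the 5 members with counts in every library, each minus its mean over the 6 libraries (bars, vertical axis in log2 units). miR-34c-5p and miR-449a-5p are lowest in saline replicate 1 and highest in saline replicate 2, where the bars of miR-34b-3p and miR-34c-3p point down.

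The 5p strand dominated in miR-34c, miR-34a and miR-449a and the 3p strand in miR-34b, a contrast between neighbouring hairpins that held in all 6 libraries. Of the counts of miR-34c, the 5p strand took 92.5%, 99.5% and 96.0% in saline replicates 1, 2 and 3 (95% Wilson intervals 89.2% to 94.8%, 99.3% to 99.7% and 95.01% to 96.8%). It took 98.9%, 97.3% and 97.2% in morphine replicates 1, 2 and 3. The means were 96.0% ± 3.52 for saline and 97.8% ± 0.931 for morphine libraries (SD, n = 3 each), and the groups overlapped. Of the counts of miR-34b, the 5p strand took 0%, 20.8% and 0% in the saline replicates and 4.0%, 3.0% and 1.13% in the morphine replicates. In saline replicate 1, 0 of 78 reads were from the 5p strand, with an upper Wilson bound of 4.69%. For miR-34a the 5p share was 100% in 5 libraries and 99.3% in morphine replicate 3, and for miR-449a it was 97.1% in saline replicate 2 and 100% elsewhere, on 3 to 34 reads.

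As a ratio of reads, miR-34c-5p to miR-34c-3p was 12.3, 198 and 24.0 in saline replicates 1, 2 and 3 and 90.1, 36.6 and 35.2 in morphine replicates 1, 2 and 3. Both strands come from 1 hairpin. Each ratio in this paragraph is taken within a library, so it does not depend on the scaling between libraries. The ratio of miR-34c-5p to miR-34b-3p, the dominant strands of the neighbouring hairpins, was 4.09, 100.5 and 8.10 in the saline replicates and 12.9, 8.49 and 6.45 in the morphine replicates. Saline replicate 2 was the highest library for both ratios. The same shift was seen in other hairpins, though mostly smaller, and 77 of 117 were above 0. Among 117 hairpins with at least 10 counts of each strand in every library, log2(5p/3p) in saline replicate 2 minus the mean of the other saline libraries had a median of 0.62 and quartiles of -0.67 and 1.66. For miR-34c it was 3.53, and 7 of the 117 hairpins, miR-34c among them, were at or above this value. Counting shifts of at least this size in either direction, there were 11. Morphine replicate 1 had the next highest value of both ratios.

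**Figure D4:**
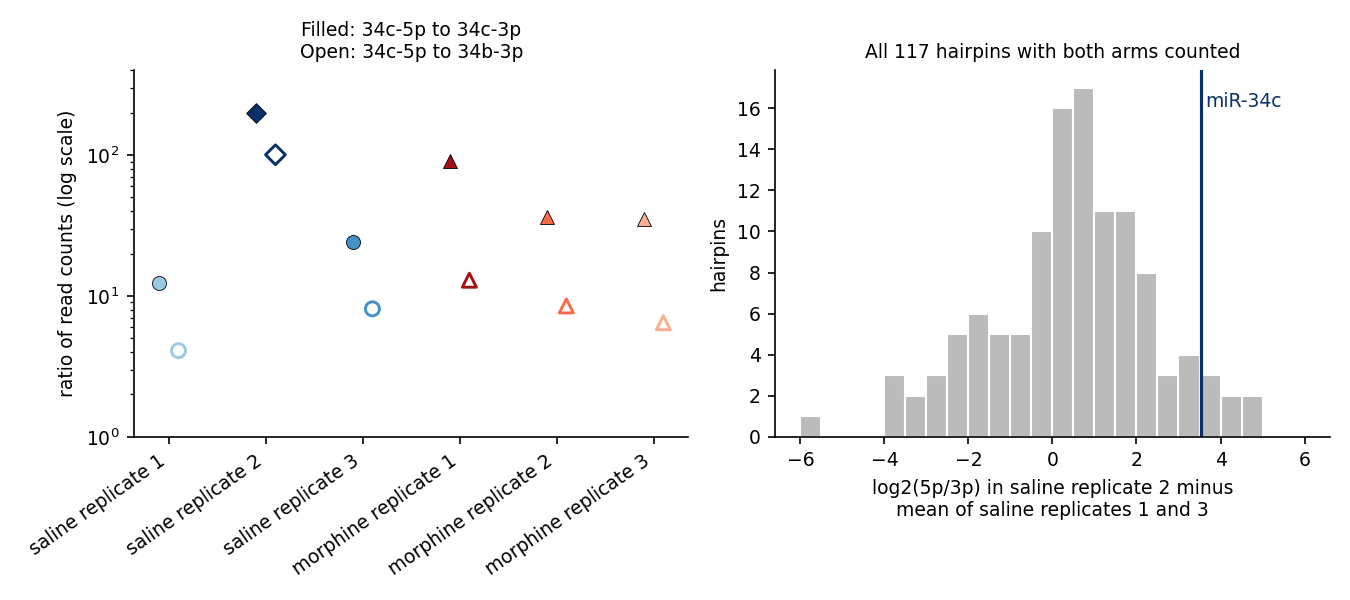
Left, ratio of read counts on a log scale in each library, for miR-34c-5p to miR-34c-3p (filled) and miR-34c-5p to miR-34b-3p (open), both highest in saline replicate 2 at 198 and 100.5. Right, number of hairpins (of 117) by the difference in log2(5p/3p) between saline replicate 2 and the mean of the other saline libraries, with a line at 3.53 for miR-34c.

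Marker miRNAs of the cells the tissue could hold were set beside these values. The list for choroid plexus and other epithelium had 12 of 12 members in the table, of which 5 met the criteria as higher and 1 as lower in the morphine group, where 19.4% of all miRNAs met them in either direction. Without saline replicate 2 the counts were 6 and 2, where 37.0% of all miRNAs met them. Without morphine replicate 1 they were 0 and 1, where 105 of all 1321 miRNAs then tested were called as higher and 71 as lower. The member still called was miR-204-5p, at a log2 fold change of -1.36. miR-204-5p, the most abundant of them and the miRNA most typical of choroid plexus, fell from 1886, 1225 and 2576 CPM in the saline replicates to 626.9, 743.6 and 634.2 CPM in the morphine replicates (log2 fold change -1.50, SE 0.46, adjusted p = 0.0533 with edgeR). The summed list ran from 1484 to 2653 CPM in the saline group and from 833.5 to 1293 CPM in the morphine group. In saline replicate 2, where miR-34c-5p and miR-449a-5p were high, it was at 0.633 times the mean of the other saline libraries. miR-204-5p was the largest part of each sum, so the sum mainly followed that marker. Other listed markers went both ways in saline replicate 2. miR-203-3p had 44.8, 160.6 and 39.9 CPM in the saline replicates and miR-429-3p 0.366, 3.75 and 0.524 CPM, while miR-211-5p had 2.75, 0.450 and 2.41 CPM. The 5 higher markers were miR-200a-3p, miR-200b-3p, miR-429-3p, miR-96-5p and miR-182-5p, and each was highest in morphine replicate 1, the library in which miR-34a-5p was highest. miR-200a-3p had 1114 counts there and 19 to 142 counts in the other 5 libraries, and miR-182-5p 1654 counts there and 113 to 267 in the others. The part of these cells in the family's values was not tested.

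Of the other lists, neurons had 0 of 6 higher and 1 lower (miR-124-3p, log2 fold change -1.88), oligodendrocytes 0 of 3 higher and 1 lower (miR-219a-5p), and microglia and blood leukocytes 1 of 5 higher and 0 lower (miR-146a-5p, 2.29). The share of all miRNAs that met the criteria in either direction was 19.4%, and 37.0% without saline replicate 2. miR-219a-5p was high in saline replicate 2 alone, with 426 counts against 3 to 36 elsewhere. Without that library its call was lost and miR-338-3p (0.88) was called as higher, while miR-124-3p stayed lower (-2.04) and miR-137-3p (2.42) and miR-9-5p (0.65) were called as higher among the neuronal markers. Erythroid cells had 1 of 4 higher and 0 lower (miR-451a, 1.57), and endothelium and mural cells 1 of 4 higher and 0 lower (miR-126a-3p, 2.42). Without saline replicate 2, miR-486a-5p (-0.65) was also called as lower on the erythroid list, and miR-126a-5p (1.25) as higher and miR-145a-5p (-0.72) as lower on the endothelial and mural list. The microglia and leukocyte count stayed at 1 higher and 0 lower. No listed marker was at 0 in all libraries, and the leading ones by level were miR-9-5p, miR-219a-2-3p, miR-146a-5p, miR-451a and miR-143-3p. The summed levels were 157.3 to 274.8 CPM in the saline and 858.3 to 1072 CPM in the morphine group for microglia and leukocytes, where miR-146a-5p, a regulator of inflammatory signalling, made up most of the sum. They were 1820 to 1903 CPM against 1572 to 1963 CPM for oligodendrocytes, 216.4 to 312.3 CPM against 360.3 to 571.9 CPM for erythroid cells, and 8767 to 23940 CPM against 17020 to 29990 CPM for endothelium and mural cells. The summed neuronal list was at 1.98 times and the endothelial and mural list at 2.47 times in saline replicate 2, relative to the mean of the other saline libraries. Most of these sums in that library was 1 marker each, miR-9-5p (211200 CPM) and miR-143-3p (18750 CPM). On the endothelial and mural list miR-126a-3p and miR-126a-5p were also higher there, while miR-145a-5p was lower, at 368.5, 189.7 and 336.1 CPM in the saline replicates. The part of these shifts in the family's values was not tested.

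Because p53 induces miR-34a, 9 other miRNAs known as p53-responsive were examined, and 9 of 9 were in the table. Of these, miR-143-3p and miR-145a-5p are also on the endothelial and mural list. In the morphine group 1 met the criteria as higher and 0 as lower, where 19.4% of all miRNAs met them in either direction and 9.68% as higher. The median log2 fold change of the list was -0.47, beside -0.15 over all miRNAs. The called member was miR-194-5p, an epithelial miRNA of gut and liver, with 41.9, 126.7 and 46.0 CPM in the saline replicates and 220.9, 135.7 and 135.8 CPM in the morphine replicates. It differed by 1.20 on the log2 scale, with an SE of 0.52 (adjusted p = 0.209 with edgeR). Without saline replicate 2, miR-194-5p and miR-215-5p were called as higher and miR-145a-5p as lower, where 37.0% of all miRNAs met the criteria in either direction. The median of the list was then 0.43, beside 0.20 over all miRNAs. The call of miR-194-5p was lost, leaving 0 of 9, with the edgeR exact test, the minimum of 10 counts, the replicate block and without morphine replicate 1 or 3. It was also lost in settings that called miR-16-1-3p as lower in its place. These were library total scaling (log2 fold change -1.44), upper quartile scaling (-1.56), and leaving out saline replicate 1 (-1.82) or saline replicate 3 (-1.79). With relative log expression scaling both were called, miR-194-5p at 1.12 and miR-16-1-3p at -1.51.

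The miRNAs outside the family with the most similar profile over the 6 libraries were sought among 601 miRNAs with at least 60 counts, by Pearson's r of log2(CPM + 1). For miR-34c-5p these were miR-27a-3p (r = 0.972), miR-384-5p (r = 0.961) and miR-376c-3p (r = 0.959), which were at r = 0.925 to 0.948 without saline replicate 2. miR-27a-3p had 78.0, 431 and 137 CPM in the saline replicates and 275.2, 191.8 and 209 CPM in the morphine replicates, again with saline replicate 1 lowest and saline replicate 2 highest. For miR-449a-5p they were miR-500-3p (r = 0.995), miR-7b-5p (r = 0.995) and miR-325-5p (r = 0.994), at r = 0.994 to 0.997 without it. miR-7b-5p, a neuronal miRNA, had 525.9, 5904 and 901.4 CPM in the saline replicates and 4000, 3932 and 3775 CPM in the morphine replicates. With 601 candidates and 6 libraries, high values of r are easily reached, and they are given as a description.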

How the data were processed

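Small RNA libraries of NAc tissue were assigned to 3 saline and 3 morphine replicates from the sample titles. The authors discarded reads of low quality, with adapter or with undetermined bases, and those under 15 or over 35 nt. They filtered other RNA classes and repeats with Bowtie and compared the rest with miRBase, whose release is not given in the sources used here, nor are the genome build and the counting rule. The authors deposited, for each mature miRNA, unnormalized read counts and TPM values. The TPM values were checked to equal each count per M of its library's total and entered no test. No column was left unused (0).

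TMM-normalized counts entered a quasi-likelihood F test in edgeR 4.0.16 (R 4.3.3), over all 1364 miRNAs with at least 1 count, without covariates, and with Benjamini-Hochberg adjustment. Standard errors and 95% intervals came from the fitted model. The script was tested on simulated data. Alternatives were other scalings, DESeq2 1.42.0 (Wald), the edgeR exact test, filters on counts, miRBase names only, the 10 most abundant miRNAs left out, a replicate block and each library left out. Leaving out saline replicate 2 and morphine replicate 1 together was chosen after seeing the data.

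Named miRNAs were all members, every called miRNA of the p53 list, the most abundant marker of each list and the 3 closest profiles for the leading miR-34b/34c and miR-449 forms. Further markers were chosen after their values were seen. The members and lists were chosen with earlier results of these data known. Hairpins and sequences were matched by name to RefSeq (GRCm38.p6) and are not from the authors' table. Intervals cover counting error only where they are Wilson intervals, since reads without molecular identifiers are not independent molecules.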

Additional observations from a re-analysis of the deposited data

How the results depend on the processing

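Leaving out each library in turn gave 176 to 492 DEmiRNAs (264 with all libraries), 0 to 386 miRNAs at an adjusted p under 0.05 (71), 0 to 5 family members that met the criteria (1) and 0 to 4 at an adjusted p under 0.05 (0). The highest value of each came without saline replicate 2, and the 176 and the 0 of 71 without morphine replicate 1. Leaving out saline replicate 2 and morphine replicate 1 together, chosen after seeing the data, gave 458 DEmiRNAs, 378 at an adjusted p under 0.05, 5 members that met the criteria and 4 at an adjusted p under 0.05. The call of miR-34b-3p, the 1 member called, was lost (0 members called) with scaling by relative log expression, by library totals or by upper quartile, with DESeq2, the edgeR exact test, filterByExpr, the minimum of 10 counts, the replicate block and without saline replicate 1, morphine replicate 2 or morphine replicate 3. The number at an adjusted p under 0.05 moved to 160 with library total scaling, 153 with upper quartile scaling, 156 with DESeq2, 28 with the minimum of 10 counts, 110 with miRBase names only and 32 with the replicate block. Of the calls, 34.9% with library totals and 37.7% with upper quartile scaling were higher in the morphine group, while TMM gave 132 of 264, and the median of all log2 fold changes moved from -0.15 to -0.40 and -0.35.

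Leaving out single libraries gave log2 fold changes of -0.70 to 1.28 for miR-34c-5p, -0.18 to 0.64 for miR-34c-3p, -0.35 to 5.67 for miR-34b-5p and -0.11 to 1.06 for miR-449c-5p, where the 5.67 is against saline libraries without a count and depends on the prior count. The direction of miR-34c-5p turned to 1.28 without saline replicate 2, 1.26 without saline replicate 2 and morphine replicate 1, and 0.56 with the replicate block. That of miR-34c-3p turned to -0.18 with library totals, -0.00287 with upper quartile scaling and -0.18 without morphine replicate 3. That of miR-34b-5p turned to -0.25 without saline replicate 1 and -0.35 without saline replicate 3, and that of miR-449c-5p to -0.11 without morphine replicate 3. The cause was not tested. The family share was 0.0863% in the saline and 0.0980% in the morphine group when the 10 most abundant miRNAs were taken out of the total, which lowers that total by construction. When single libraries were left out, the mean shares of the 5p strand for miR-34c ran from 94.2% to 98.1%. For miR-34b in the saline group the mean share was 6.94% with all libraries. It was 0% without saline replicate 2 and 10.4% without saline replicate 1 or 3.

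The replicate numbers are shared by the groups, but deviations of same-numbered libraries from their group means correlated at -0.216, -0.276 and 0.144, and 0 of 3 saline libraries correlated best with its own number, so the block is a number only. With it 179 DEmiRNAs and 0 members met the criteria. DESeq2 gave no adjusted p for miR-34a-3p, miR-449a-3p and miR-449c-5p, and filterByExpr kept 5 members. With 3 libraries per group, a rise of 1 log2 unit lay within the 95% interval of each of the 7 members that had one.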
